A study of Saccharomyces cerevisiae with 4 samples.

Results

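Withdrawal of Hsf1 during heat shock was examined by setting 1 RNA-seq library of heat-shocked, rapamycin-treated budding yeast (Saccharomyces cerevisiae) against 1 library heat-shocked without the drug, 2 of the 4 samples of the series. The comparison covers the 5642 of 7126 listed features whose mean over the 4 libraries was at least 5 normalised reads. All 4 samples came from strain DPY438, whose genotype label is Hsf1-AA, for Hsf1 anchor-away. The heat-shocked pair had 10 min at 39 °C, either without rapamycin or with 1 µM rapamycin, and the other pair was kept at 30 °C, again without or with the drug. Rapamycin was given for 45 min. The labels do not say whether the drug came before the heat, and name neither the anchor protein nor any allele that makes TORC1, the growth-regulating kinase complex that rapamycin inhibits, resistant to it. No strain without the anchor-away alleles is among the samples, so an effect of the drug itself and the loss of nuclear Hsf1 cannot be told apart by design.

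Hsf1 is the transcription factor that binds heat shock elements, inverted repeats of the short unit GAA, upstream of chaperone genes. Chaperones of the Hsp70 and Hsp90 families, with their J-domain partners, exchange factors and adaptors, fold new proteins and hold or refold those that heat has damaged. In the anchor-away method rapamycin bridges the tagged factor to a second protein that shuttles out to the cytoplasm, so the factor is drawn off its genes while its own mRNA need not change. Msn2 and Msn4 are a separate pair of stress activators, and genes for making ribosomes are switched down in heat by other routes.

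The libraries held 1561620 and 3231228 assigned reads at 30 °C without and with rapamycin, and 2026880 and 2254007 in heat shock without and with it. One read was worth 1.4, 0.888, 1.5 and 0.961 normalised reads in that order, which is also the order of every set of 4 values below. Each group held 1 library, so no difference here has a replicate check and no p-value is given. A parenthesis after a fold holds the 95% exact interval of the read ratio, which covers counting error only. HSF1 itself was at 157, 107, 288 and 225 normalised reads, values that do not check where the protein was. FPR1, the gene of a rapamycin-binding protein that anchor-away strains usually lack, was listed at 0 in all 4. Summed markers of the MATalpha mating type were at 1243 and 1495 in the heat-shocked pair and those of MATa at 112 and 157, with MFA1, MFA2 and AGA2 under the filter.

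Rapamycin in heat shock left most features near their level without it. Of the 5642 features, 139 (2.46%) were at least 2-fold lower and 257 (4.56%) at least 2-fold higher, with a median log2 ratio of 0.04 and with the middle of the distribution, from the 5th to the 95th percentile, between -0.75 and 0.95. Past 4-fold the balance turned, with 58 features lower (1.03%) and 18 higher (0.319%). Of the 58, 51 had at least 100 reads in the library without rapamycin, whereas 15 of the 18 had under 10 there. The share of higher features among those past 2-fold was 64.9%, and it was 92.0% after scaling to library totals, which puts the median of all features at 0.53. Near the 2-fold line, 29 features lay between 2-fold and 2.2-fold lower and 68 between 1.8-fold and 2-fold lower.

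The Hsf1-target cytosolic chaperone genes formed the low end. Of the 23 genes on this list, 21 were at least 2-fold lower with rapamycin against 2.46% of all features, 20 passed 4-fold, and none was higher. Their median log2 ratio was -4.35, a fold of 20.4, beside 0.04 for all features. Together they took 0.911% and 0.322% of the reads at 30 °C, then 8.95% of the reads in heat shock without rapamycin (exact binomial interval 8.91% to 8.99%) and 0.777% with it (0.766% to 0.789%). The level left in heat shock with rapamycin ran from 0.512% to 96.1% of that without, with a median of 4.90%. Set against the 30 °C library without rapamycin, 15 of the 23 were below their unheated level in heat shock with the drug, 10 of them by at least 2-fold, and 8 were above it, 4 of them by at least 2-fold. The list was drawn up with earlier results of these libraries known, so its direction is not independent evidence.

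**Figure D1:**
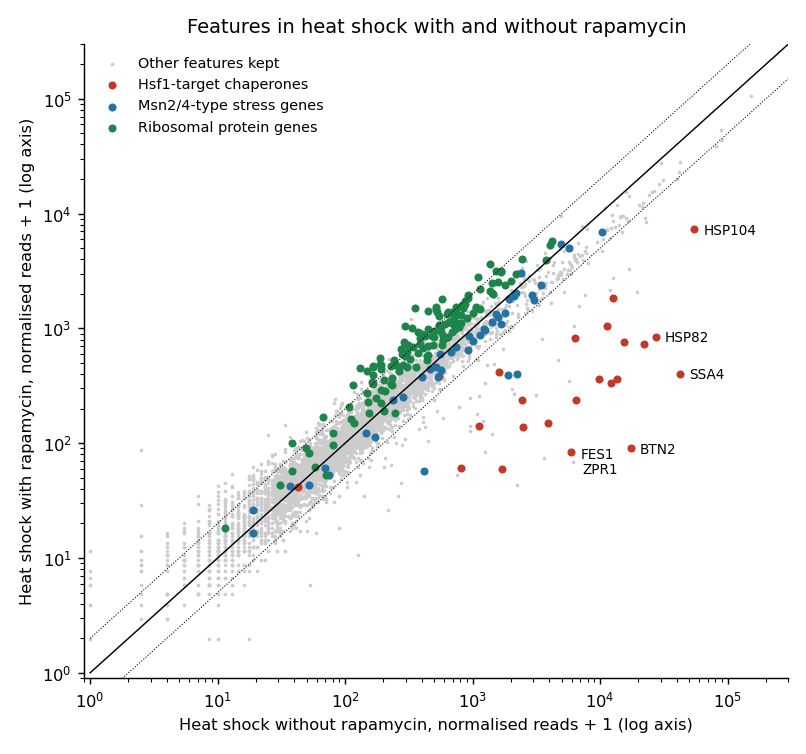
Each point is 1 of the 5642 features, at its normalised reads plus 1 in heat shock without rapamycin (x, log axis) and with rapamycin (y, log axis). The solid line marks equal values and the dotted lines 2-fold; 21 of 23 Hsf1-target chaperone genes (red) lie below the lower dotted line, 39 of 42 Msn2/4-type genes (blue) lie between the dotted lines, and 45 of 137 ribosomal protein genes (green) lie above the upper one.

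Many of the lowest genes carried the long form of the Hsf1 element upstream. A 3-unit element was searched as GAANNTTCNNGAA or its reverse complement TTCNNGAANNTTC, in the 500 bases before the annotated start of each of 5431 protein-coding genes on the R64 sequence (the assembly named sacCer3), both strands, overlapping matches counted. It was found upstream of 84 genes (1.55%), of 26 of the 125 genes at least 2-fold lower with rapamycin (20.8%), of 20 of the 56 past 4-fold lower (35.7%) and of 9 of the 17 past 16-fold lower (52.9%). Among the 245 genes at least 2-fold higher it was found upstream of 3 (1.22%). Seen from the element, 26 of the 84 genes with it were at least 2-fold lower (31.0%), against 1.85% of the 5347 without it. These genes are not all separate cases, because the windows of neighbouring genes can overlap and the same site then counts for both. Among the lower genes this holds for SIS1 and LST8, ZPR1 and YGR210C, and SSA1 and EFB1. A match describes these letters and is not a shown binding site, and most of the 84 genes with the element were not 2-fold lower.

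The following sites, 1 for each of 8 genes that stood at least 4-fold lower, show the element as it sits in these promoters. Each is given 5′ to 3′ on the strand of its gene, with the 3-unit element in capitals.
BTN2: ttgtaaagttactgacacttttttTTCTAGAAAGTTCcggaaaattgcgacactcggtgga
ZPR1: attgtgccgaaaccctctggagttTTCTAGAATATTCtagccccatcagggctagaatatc
STI1: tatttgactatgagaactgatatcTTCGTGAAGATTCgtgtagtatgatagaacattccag
SSA2: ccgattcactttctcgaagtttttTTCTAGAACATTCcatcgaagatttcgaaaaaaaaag
SIS1: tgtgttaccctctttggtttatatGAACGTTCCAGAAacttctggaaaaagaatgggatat
HSP78: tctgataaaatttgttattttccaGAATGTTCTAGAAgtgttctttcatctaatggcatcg
HSP104: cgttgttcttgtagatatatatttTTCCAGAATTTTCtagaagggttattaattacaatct
HSP42: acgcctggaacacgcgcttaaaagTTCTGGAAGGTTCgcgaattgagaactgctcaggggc
The BTN2 window lies at chrVII:772086-772146 on the plus strand, with its element ending 331 bases before the start of the reading frame. The SSA2 window is at chrXII:97682-97742 on the minus strand (220 bases before the start) and that of HSP104 at chrXII:88297-88357 on the plus strand (289 bases). In BTN2, SIS1, HSP78, HSP104 and HSP42 a second match overlaps the first, so the alternation of units runs on past the capitals.

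Within the chaperone list 10 of 23 genes had the 3-unit element (43.5%) and 21 the shorter form of 2 units (91.3%), which is common, with 35.5% of all genes holding it. SSA4, HSP82, HSC82, YDJ1, APJ1 and CPR6 had none of the 3-unit form in this window, yet each stood at least 16-fold lower. The stress response element AGGGG, the site known for Msn2 and Msn4, was about as common upstream of the genes at least 2-fold lower (35.2%) as upstream of all genes (34.5%). Its share was 42.9% of the genes past 4-fold lower, 29.4% of those past 16-fold lower and 22% of those at least 2-fold higher.

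**Figure D2:**
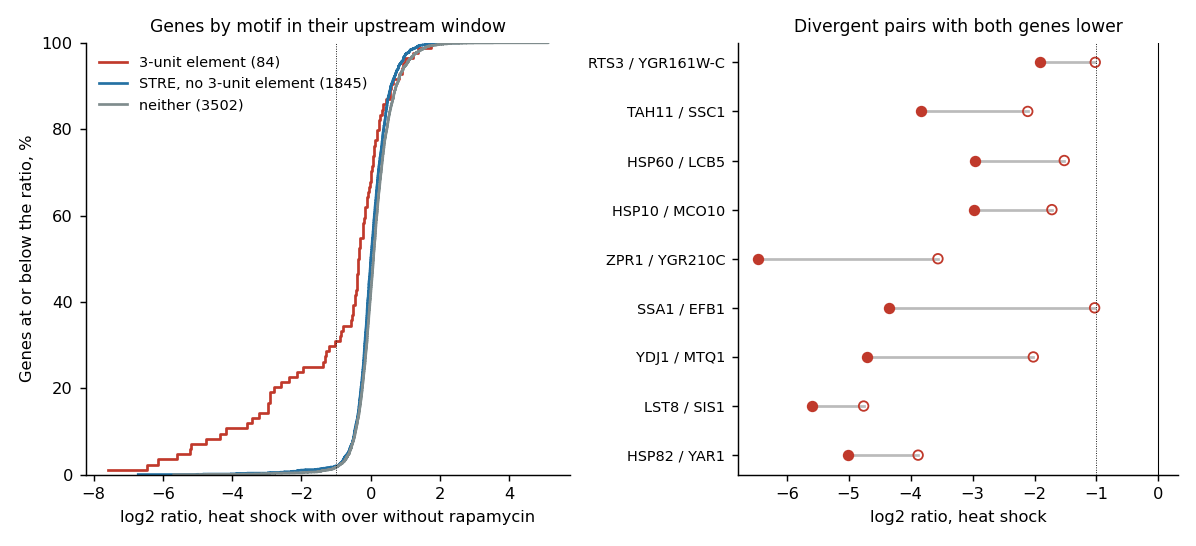
Left, the percentage of genes (y) at or below each log2 ratio of heat shock with over without rapamycin (x), for the 84 genes with a 3-unit Hsf1 element in 500 upstream bases, the genes with only the stress response element AGGGG (STRE), and those with neither. The first curve reaches 31.0% at the dotted 2-fold line, that for STRE alone 2.06%. Right, the 9 divergent gene pairs in which both genes were at least 2-fold lower, the lower gene filled and its partner open; SIS1 and LST8 are at -4.76 and -5.60.

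The cytosolic Hsp70 genes differed in how far they stood from their unheated level. SSA4, the strictly heat-inducible member, was at 169, 525, 42107 and 402 normalised reads, so the heat-shocked library with rapamycin held 0.954% of the level without it, a 105-fold difference (95.2 to 116). The heat-shocked library without the drug stands alone, and the other 3 lie within a range set by the 30 °C pair. SSA2, the main constitutive member, was at 3972, 374, 12224 and 332, 36.7-fold lower in heat shock with rapamycin (33.0 to 41.1), and there it was at 0.0837 of its level in untreated cells at 30 °C. SSA1 was at 1628, 314, 15510 and 760 (20.4-fold lower, 19.0 to 22) and SSA3 at 106, 125, 2420 and 239 (10.1-fold lower, 8.85 to 11.6). For SSA1 and SSA2 both rapamycin libraries are the lowest, while SSA3 and SSA4 are lowest at 30 °C without the drug. Reads of these near-identical pairs may be divided unevenly by the authors' counting, and summed, SSA1 with SSA2 was 25.4-fold lower (23.9 to 27.0) and SSA3 with SSA4 69.4-fold lower (64.3 to 75.1).

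The partners of Hsp70 were lower as well. FES1, the gene of an exchange factor that releases ADP from Hsp70, was at 193, 170, 5946 and 83.6, 70.3-fold lower in heat shock with rapamycin (57.5 to 89.0). SSE1, which encodes a larger exchange factor of the Hsp110 type, was at 2206, 1842, 11249 and 1040, 10.8-fold lower (10.1 to 11.5), and its stress-type paralog SSE2, counted with the Msn2/4-type genes, was 5.64-fold lower (5.06 to 6.32). FES1 and SSE1 are both at their lowest in heat shock with rapamycin, at 0.433 and 0.472 of the untreated 30 °C level. Among the J-domain genes, whose products hand clients to Hsp70, SIS1 was at 417, 224, 9733 and 358, YDJ1 at 902, 389, 3919 and 149, and APJ1 at 62.9, 40.0, 1703 and 58.6. Their folds of 27.1 (24.5 to 30.2), 26.1 (22.4 to 31.1) and 28.6 (22.5 to 38.2) lie inside each other's counting intervals. They differed in their level in heat shock with rapamycin against untreated cells at 30 °C. SIS1 and APJ1 were near that 30 °C value (0.858 and 0.932) and YDJ1 was at 0.165 of it.

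Both Hsp90 genes stood about equally lower. The inducible HSP82 was at 612, 424, 27356 and 846, 32.3-fold lower in heat shock with rapamycin (30.2 to 34.6). The constitutive HSC82 was at 4621, 1001, 21984 and 728, 30.1-fold lower (28.1 to 32.5). HSP82 kept a value 1.38 times that of untreated 30 °C cells, whereas HSC82 was at 0.158 of it, and summed the near-identical pair was 31.3-fold lower (29.8 to 32.9). Of the Hsp90 co-chaperones, the Hsp70-Hsp90 adaptor STI1 was at 783, 355, 13478 and 362 (37.1-fold lower, 33.6 to 41.4), the cyclophilin CPR6 was 27.5-fold lower (24.3 to 31.5), the ATPase activator AHA1 18.1-fold (15.3 to 21.7) and its relative HCH1 7.99-fold (6.72 to 9.67). SBA1, the p23-type co-chaperone, was the exception with CNS1. SBA1 was at 285, 318, 541 and 387, a log2 ratio of -0.48, and CNS1, an essential adaptor, at 88.6, 74.6, 42.0 and 40.4, a ratio of -0.06 whose counting interval spans equality. These were the 2 members of the list short of 2-fold.

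Genes for the handling of aggregated proteins ran from the lowest ratio of the list, that of BTN2, to -2.78 for HSP42. BTN2, which sorts misfolded proteins into deposits, had the lowest ratio of all kept features. It was at 110, 182, 17462 and 89.3, from 11647 reads to 93 in the heat-shocked pair, 193-fold lower (159 to 242). Its paralog CUR1 was at 44.3, 10.7, 807 and 59.6, 13.3-fold lower (10.4 to 17.9). HSP104, the disaggregase, was at 1473, 1046, 54770 and 7314, and HSP42, a small heat shock protein, at 169, 213, 12666 and 1839. HSP104 was 7.49-fold lower (7.31 to 7.68) and HSP42 6.88-fold (6.55 to 7.24), so that 13.4% and 14.5% of the heat-shock level was left, and both stayed above 30 °C, by 4.97 and 10.9 times. Of the remaining members, MBF1, a transcriptional coactivator, was 7.78-fold lower (7.23 to 8.39) and SGT2, an adaptor in the targeting of tail-anchored proteins, 3.89-fold (3.48 to 4.37).

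**Figure D3:**
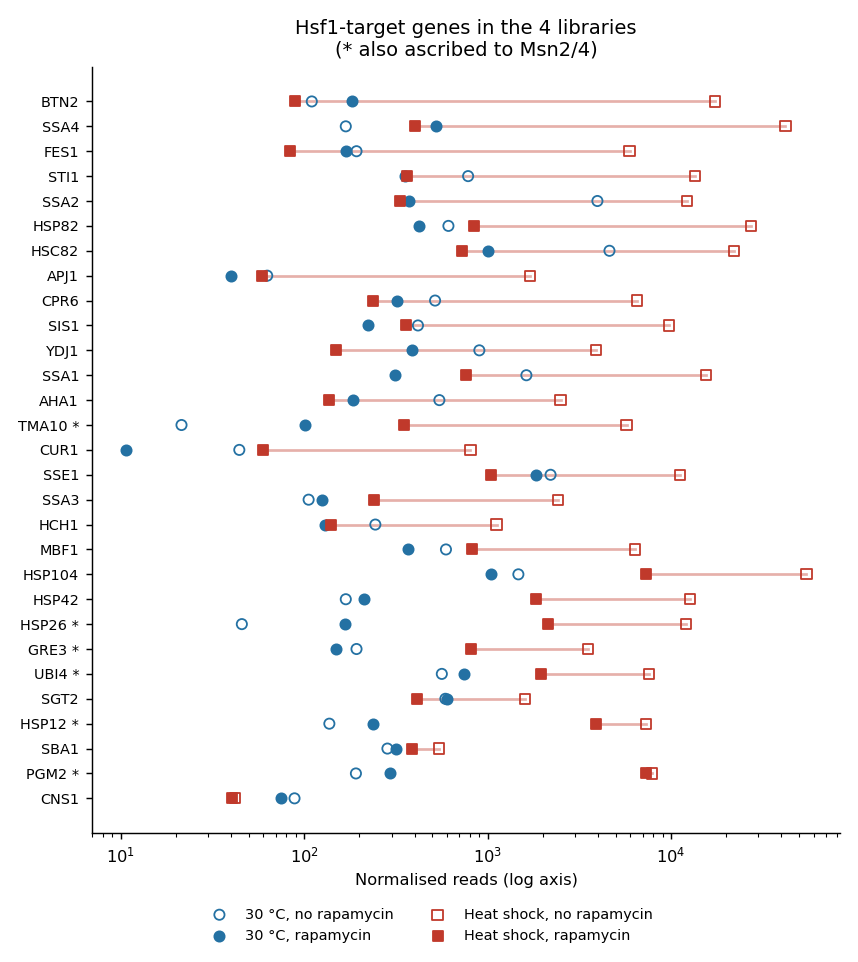
Normalised reads (x, log axis) of the 23 Hsf1-target genes and the 6 genes ascribed to both Hsf1 and Msn2/4 (asterisk) in the 4 libraries, ordered by the ratio of heat shock with over without rapamycin; 1 library per symbol, so no error bars, and the pink line joins the heat-shocked pair. The line is longest for BTN2 (17462 to 89.3) and shortest for CNS1 (42.0 to 40.4).

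The 6 genes ascribed to both factors had a median between those of the chaperone and the general stress genes. At least 2-fold lower were 4 of them, against 2.46% of all features, none was higher, and the median log2 ratio was -2.04. Single members ran from -4.03 to -0.11 and so overlapped both of those lists. TMA10, a ribosome-associated stress protein gene, was at 21.4, 101, 5724 and 349 (16.4-fold lower, 14.7 to 18.3), and HSP26, a small heat shock protein gene, at 45.8, 166, 12044 and 2149 (5.6-fold lower, 5.35 to 5.88). The aldose reductase gene GRE3 was 4.37-fold lower (4.04 to 4.73) and the polyubiquitin gene UBI4 3.89-fold (3.70 to 4.10). HSP12, a membrane-binding stress protein gene, was 1.86-fold lower (1.79 to 1.94), and PGM2, the phosphoglucomutase gene, at 192, 292, 7874 and 7276, a log2 ratio of -0.11. All 6 stayed above the untreated 30 °C level in heat shock with rapamycin, from 3.47 times in UBI4 to 47.0 times in HSP26. All 6 had the element AGGGG upstream and UBI4 alone the 3-unit Hsf1 element.

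The 42 Msn2/4-type general stress genes kept most of their heat-shock level. At least 2-fold lower were 3 of them, against 2.46% of all features, and none was higher. The median log2 ratio was -0.26, which turned to 0.23 when libraries were divided by their totals. As a share of reads the list took 2.09% in heat shock without rapamycin (2.07% to 2.11%) and 2.28% with it (2.26% to 2.29%), beside 0.205% and 0.193% at 30 °C. The 3 lower ones were ROQ1, a regulator of the ubiquitin ligase Ubr1 (4.29, 14.2, 418 and 55.7; 7.39-fold lower, 5.64 to 10.1), the Hsp110 gene SSE2 and SPI1, a cell wall protein gene (22.9, 41.8, 1879 and 394; 4.76-fold lower, 4.26 to 5.34). CTT1, the cytosolic catalase gene, chosen after its values were seen, was at 124, 114, 4942 and 5441, with the heat-shocked pair nearly equal. Among 19 trehalose and glycogen genes 1 was at least 2-fold higher, beside 4.56% of all features, and none lower. Their median was -0.02, and 0.47 on library totals. TSL1, a subunit of trehalose synthase, was at 460, 592, 12377 and 9762, 1.27-fold lower (1.23 to 1.31), although a 3-unit Hsf1 element lies upstream of it.

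Several genes outside the chaperone list stood as low as its members. ZPR1, which encodes a zinc finger protein that helps fold translation elongation factor 1A, was at 486, 385, 6128 and 68.2, 88.6-fold lower (71.1 to 115) and at 0.140 of its untreated 30 °C level. ATG41, an autophagy gene, was at 11.4, 37.3, 2225 and 42.3 (51.4-fold lower, 39.0 to 72.8). LST8, a shared subunit of the TOR complexes, was at 87.2, 94.2, 3625 and 74.0 (48.4-fold lower, 39.1 to 62.3). In all 3 the heat-shocked library without rapamycin is the single high value. Of the 58 features past 4-fold lower, 20 were on the chaperone list, 5 on the mitochondrial chaperone list, 3 on that of both factors, 3 on the Msn2/4 list and 18 on no list.

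The following genes, IRA2 excepted, fall outside the naming rule and were picked because their values were seen. YAR1, a chaperone of a small-subunit ribosomal protein, was 14.7-fold lower (11.9 to 18.7) and TAH11, a replication licensing factor, 14.3-fold (11 to 19.7). The RNA-binding protein gene RIE1 was 8.79-fold lower (8.04 to 9.66), PIN3, a gene of actin regulation and prion induction, 7.73-fold (6.56 to 9.26), OPI10 7.42-fold (6.19 to 9.08), the spindle checkpoint kinase BUB1 7.56-fold (5.37 to 11.5) and APA1, which splits diadenosine tetraphosphate, 6.04-fold (5.16 to 7.18). OPI10 and APA1 have a 3-unit element upstream. IRA2, a GTPase-activating protein of Ras, was at 815, 864, 6235 and 1048. In heat shock with rapamycin it was thus near its 30 °C level, 5.94-fold lower than without the drug (5.56 to 6.36). HSP30, a plasma membrane protein gene, was at 38.6, 135, 12532 and 2753; it was 4.55-fold lower (4.36 to 4.75) and still 71.3 times its untreated 30 °C value.

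Mitochondrial and endoplasmic reticulum chaperones split into a low minority and an even majority. The mitochondrial list had 5 of 12 genes at least 2-fold lower, against 2.46% of all features, and none higher, with a median of -0.54. They were the J-domain gene MDJ1 (297, 115, 3132 and 263; 11.9-fold lower, 10.5 to 13.5), the disaggregase HSP78 (387, 274, 19368 and 2067; 9.37-fold, 8.95 to 9.81), the chaperonin subunits HSP10 (7.82-fold, 6.89 to 8.95) and HSP60 (7.77-fold, 7.22 to 8.37) and the Hsp70 gene SSC1 (4.32-fold, 4.09 to 4.58). All 5 also passed 4-fold, and the other 7 lay inside 2-fold. Of 15 endoplasmic reticulum genes 2 were at least 2-fold lower, ERO1, the oxidase that drives disulfide formation (209, 203, 2026 and 297; 6.80-fold, 6.03 to 7.75), and KAR2, the Hsp70 of that compartment (1997, 1724, 16810 and 3270; 5.14-fold, 4.95 to 5.34). The median of that list was -0.09 and turned to 0.40 on library totals.

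Proteasome subunit genes differed little, while single ubiquitin and quality-control genes stood lower. None of 32 proteasome subunit genes passed 2-fold and all 32 had ratios below 0, between -0.73 and -0.11, with a median of -0.48 that was 0.01 on library totals. RPN4, the gene of the transcription factor for proteasome subunits, was at 224, 123, 1120 and 257, 4.35-fold lower (3.79 to 5.04), with 2 matches of the 3-unit Hsf1 element upstream. In the ubiquitin and quality-control list 4 of 25 stood at least 2-fold lower, against 2.46% of all features, and none higher (median -0.38, 0.11 on library totals).

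The ribosome-bound Hsp70 pair and many ribosomal genes lay on the other side. SSB1 and SSB2, the ribosome-bound Hsp70 genes, were at 3790, 4669, 532 and 1269 and at 1844, 3613, 328 and 1207. Summed, since the pair is near-identical, they were 2.87-fold higher in heat shock with rapamycin than without (2.63 to 3.15), and both heat-shocked libraries were below both 30 °C libraries. Only this pair among the 7 genes of the ribosome-associated chaperone list was at least 2-fold higher (median 0.45), against 4.56% of all features. Of 14 genes of the CCT chaperonin and prefoldin, which fold actin and tubulin, none passed 2-fold (median 0.06). Beside shares of 4.56% higher and 2.46% lower among all features, 14 genes are too few for that absence to set the list apart.

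Ribosomal protein genes stood higher as a group, 45 of 137 being at least 2-fold higher with rapamycin in heat shock and none lower, against 4.56% of all features, with a median log2 ratio of 0.83. Their share of reads was 9.65% and 9.91% at 30 °C, 2.84% in heat shock without rapamycin (2.81% to 2.86%) and 6.86% with it (6.83% to 6.89%). RPS9B was at 3104, 4370, 352 and 1508 (4.27-fold higher, 3.73 to 4.93), RPL26B at 2107, 3915, 295 and 1057 (3.57-fold, 3.07 to 4.19) and RPL21B at 522, 743, 130 and 449 (3.42-fold, 2.73 to 4.38). In each the heat-shocked library with rapamycin lies between the heat-shocked library without it and the 30 °C pair, and as these genes have close paralogs, single values are uncertain.

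For ribosome biogenesis genes too, at lower read counts, the share in heat shock with rapamycin lay between that without it and the 30 °C pair. The list had 25 of 76 genes at least 2-fold higher and none lower (median 0.74), and their share of reads was 1.27%, 1.19%, 0.121% and 0.277%. BRX1, a factor of large-subunit assembly, was at 224, 257, 6.0 and 28.8, from 4 and 30 reads in the heat-shocked pair (4.26-fold higher, 1.69 to 18.8). RLP24, of the same pathway, was at 182, 317, 7.5 and 25 (3.06-fold, 1.26 to 11.1). RNA polymerase I and III genes had 2 of 21 at least 2-fold higher (median 0.58), and translation factors 2 of 38 higher, among them the poly(A)-binding protein gene PAB1 (2.07-fold, 1.85 to 2.31), with 1 lower; the share of higher translation factors is near the 4.56% of all features. The medians of all 4 of these lists were larger, up to 1.32 for ribosomal proteins, on library totals. The PAC element GCGATGAG, known from ribosome biogenesis promoters, lay upstream of 13.1% of the genes at least 2-fold higher and of 5.23% of all genes. The 32 kept nitrogen catabolite genes had no member past 2-fold in heat shock, a range of -0.49 to 0.73 and a median of 0.01 (0.50 on library totals). Where TORC1 is sensitive, rapamycin can itself lower the transcripts of ribosomal genes and raise those of nitrogen catabolite genes. The part of TORC1 in the values of either group was not tested.

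**Figure D4:**
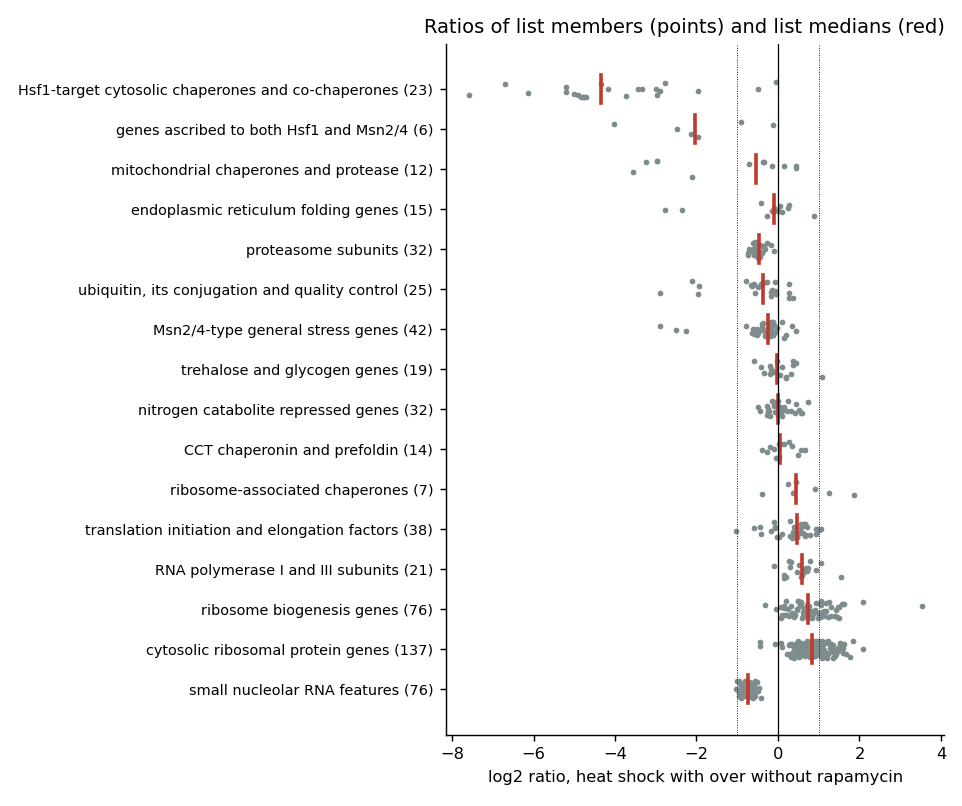
Log2 ratio of heat shock with over without rapamycin (x) for the members (grey points, spread vertically at random) of 16 gene lists (y, with the number of genes kept), with the list median as a red bar and dotted lines at 2-fold. Medians run from -4.35 for the Hsf1-target chaperones to 0.83 for the ribosomal proteins.

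Few reads stood behind the highest ratios. RRT15, a small reading frame next to the ribosomal DNA, was at 1.4, 5.33, 1.5 and 86.5, from 1 read to 90 in the heat-shocked pair (35-fold higher, 10.1 to 2303), and its neighbour YLR162W was at 24.3, 9.77, 24 and 117 (4.73-fold, 2.89 to 8.82). RPF2, a ribosome assembly gene, was at 217, 302, 1.5 and 27.9, again from 1 read, and the ribosomal RNA processing gene FYV7 had 0 and 7 reads. Its fold was 1.5 against a floor of 3 reads per library, but its counting interval begins at 0.924 and so includes equality. YIL100W, which matched no RefSeq gene, YJR146W, PUL3 and MAL32 had likewise no read without rapamycin and 11, 6, 5 and 5 with it. The counting interval begins at 1.61 for YIL100W and below 1 for the others, at 0.755 for YJR146W and 0.587 for PUL3 and MAL32. The remaining features of the 12 highest were SNO1, with 1 and 15 reads, PPM2, a tRNA methyltransferase gene, with 4 and 35, and RGS2 and MBB1, each with 1 and 11. PHO84, the high-affinity phosphate transporter gene, rested on more reads, at 792, 1063, 33.0 and 142 (4.21-fold higher, 2.74 to 7.09).

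The same drug contrast at 30 °C shares no library with that in heat, so their members can be compared. At 30 °C 227 features (4.02%) were at least 2-fold lower and 265 (4.70%) at least 2-fold higher. The lower sets shared 21 features, 15.1% of those in heat shock and 9.25% of those at 30 °C, and the higher sets 18, or 7.0% and 6.79%. A further 15 features were lower in heat and higher at 30 °C, and 14 the reverse. For the chaperone list the median ratio was -0.64 at 30 °C against -4.35 in heat, and the median of the gene-by-gene difference, heat minus 30 °C, was -3.12. With 1 library for each condition this difference could not be tested.

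Both contrasts reached 2-fold lower for SSA1 (-2.37 at 30 °C, -4.35 in heat), SSA2 (-3.41, -5.20), HSC82 (-2.21, -4.91), CUR1 (-1.96, -3.74), AHA1 (-1.56, -4.18), YDJ1 (-1.21, -4.71) and STI1 (-1.14, -5.21). The other members lay inside 2-fold at 30 °C, apart from SSA4, which was higher. BTN2 had log2 ratios of 0.72 at 30 °C and -7.59 in heat, HSP42 0.34 and -2.78, and SSA4 1.63 and -6.71. ZPR1 and LST8, with -0.34 and 0.11 at 30 °C, were likewise inside 2-fold there.

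**Figure D5:**
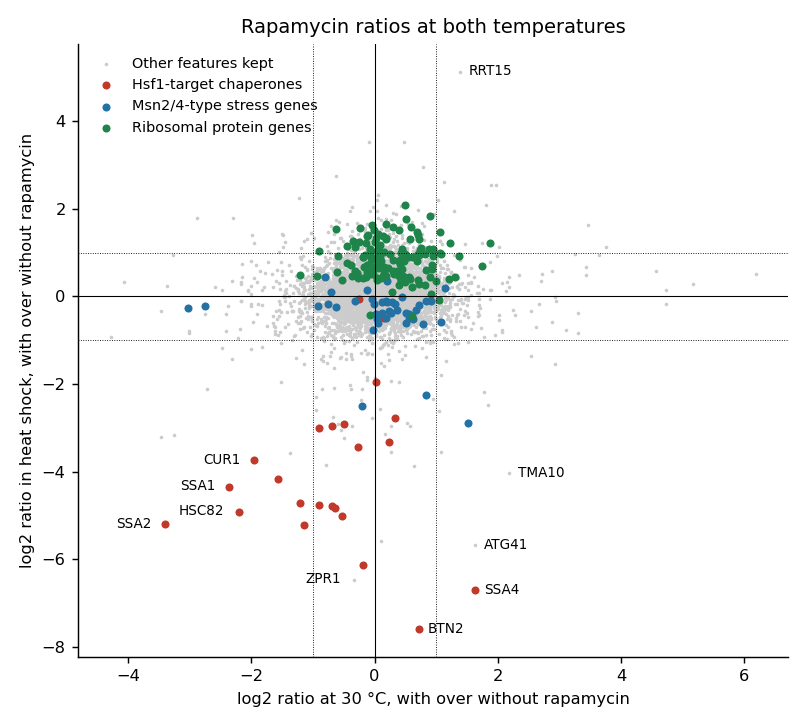
Log2 ratio with over without rapamycin at 30 °C (x) and in heat shock (y) for the 5642 features, with dotted lines at 2-fold. SSA2, HSC82, SSA1 and CUR1 are at the lower left, low in both contrasts, while SSA4, ATG41 and TMA10 are at the lower right, and ribosomal protein genes (green) sit mostly above 0 on the y axis.

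In 9 divergent pairs, whose genes share an upstream region, both genes were at least 2-fold lower. Among divergently transcribed pairs of kept protein-coding genes, 42 had at least 1 gene 2-fold lower, so these 9 were 21.4% of them. In tandem pairs it was 2 of 115 (1.74%) and in convergent pairs 1 of 58 (1.72%). SIS1 and LST8, whose reading frames start 501 bases apart, have the same 3-unit elements in both windows, and their ratios were -4.76 and -5.60. ZPR1 and YGR210C, 502 bases apart, also share an element and were at -6.47 and -3.56. SSA1 and EFB1, a translation elongation factor gene, 742 bases apart, share elements too and were at -4.35 and -1.03. Most divergent pairs that share an element did not have 2 lower genes. KAR2 and TAD2 share theirs and TAD2 was at -0.88, short of 2-fold. In other such pairs neither gene was 2-fold lower. Among these were TSL1 and CUE4 (-0.34 and -0.87), COQ6 and GND2 (-0.23 and -0.17), ARG82 and HMO1 (0.03 and 0.18) and ICE2 and UTP25 (0.10 and 1.37).

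The other divergent pairs were HSP82 with YAR1 (-5.01 and -3.88), YDJ1 with MTQ1, a release factor methyltransferase gene (-4.71 and -2.02), SSC1 with TAH11 (-2.11 and -3.84), HSP60 with the sphingoid kinase gene LCB5 (-2.96 and -1.52), HSP10 with MCO10 (-2.97 and -1.72) and RTS3 with YGR161W-C (-1.91 and -1.02). In none of these pairs did both windows hold a 3-unit element. HSP60 and HSP10 had it, but their partners did not, and the other pairs had it in neither window. Without the strand setting of the authors' counting, reads of overlapping transcripts on opposite strands cannot be told apart. ASI3, at -1.93 beside SIS1 in tandem, lies on the same strand as SIS1. Reads of overlapping transcripts of that pair could not be told apart under any strand setting.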

How the data were processed

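RNA was extracted with phenol and chloroform and made into TruSeq libraries, per the labels, and the submitters' processing notes name TopHat, HTSeq and sacCer3. The authors deposited a signal per gene, its read count over a factor of the library. The making of that factor was not given in the sources used here. Dividing by the smallest step of each library gave whole reads for 100% of values, with a tolerance of 0.0055. Rows were matched to RefSeq genes of R64 (6162 matched, 964 did not), and 766 features are at 0 in all libraries.

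Ratios were taken on log2(value + 1), which understates the change of low features, over features with a mean of at least 5. Past 2-fold is a rule of size, not a test. Fold intervals are exact conditional binomial (Clopper-Pearson) at 95%, from reads, which are not independent molecules. Upstream windows were read from the R64 genome. Python 3.11.15 with scipy 1.17.1, and R 4.3.3 with edgeR 4.0.16 for an alternative count test, were used, and the code was tested on simulated data.

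The members and the 38 gene lists were chosen with earlier results of these data known. The rule for naming covers all members of both Hsf1 lists, the 12 highest and 12 lowest features, up to 3 members of each other list in the direction of its median, reference and stress factor genes, and the 5 largest opposite differences; exceptions are stated where they occur, and neighbours of named genes and features past 4-fold are exceptions too. Alternatives were other scalings (library total, protein-coding total, TMM, median of ratios), 0.25 and 5 as pseudocount, minimum means of 1 and 20, no filter, protein-coding features alone, 4-fold for the motif count, the count test and, added after the data were seen, a 250-base window and summed paralogs.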

Additional observations from a re-analysis of the deposited data

Results flagged for a closer look

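For 11 named features the ratio with over without rapamycin went at least 2-fold in opposite directions in heat shock and at 30 °C. Over all 5642 features, 15 were lower in heat and higher at 30 °C, and 14 the reverse. The naming takes in the 5 largest opposite differences and features past 4-fold in heat. The count of 11 and its lean to features lower in heat therefore reflect how they were picked. With 1 library per condition these differences were not tested. On the log2 scale, the ratio in heat minus the ratio at 30 °C was -8.34 for SSA4, -7.31 for ATG41, -6.22 for TMA10, -4.63 for SIP4, -4.41 for ROQ1, -4.32 for HSP26, -3.97 for HSP30 and -3.66 for BSC5, all of them lower with rapamycin in heat and higher at 30 °C. SIP4, the gene of an activator of gluconeogenic genes, was at 2.86, 7.11, 124 and 9.61 normalised reads at 30 °C without and with rapamycin and in heat without and with it. At 30 °C SIP4 had only 2 and 8 reads, and ROQ1 3 and 16. The counting intervals of their folds at 30 °C begin at 0.496 for SIP4 and 0.949 for ROQ1, and so include equality. For SIP4 and ROQ1 the opposite direction at 30 °C is thus not separated from counting error.

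The reverse held for YHR175W-A, with a difference of 4.67, for YLR162W (3.47) and for CLN3 (2.48). CLN3, the G1 cyclin gene that starts the cell cycle, was at 157, 76.4, 81.0 and 222, from 54 and 231 reads in the heat-shocked pair. YHR175W-A had 1 and 8 reads there, so its ratio rests on little depth.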

How the results depend on the processing

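The count of 21 Hsf1-target genes at least 2-fold lower was the same under all 10 alternatives of scaling, pseudocount, filter and feature set. For the 103 named genes past 2-fold, no sign turned in 1016 alternative values, of which 997 stayed past 2-fold. Of these genes, 14 were under 2-fold in at least 1 alternative. The unchanged count and signs were largely fixed in advance and are no check of robustness. Filters leave a gene's ratio as it is, pseudocounts keep its sign, and scalings move all ratios by a nearly common amount. The largest such move took the median of all features from 0.04 to 0.53, whereas SGT2, the weakest of the 21, stood at -1.96. Dividing by the library total or by the protein-coding total, which puts the median of all features at 0.53 or 0.37, gave 871 or 586 features at least 2-fold higher (86.6% of calls for the latter) and 76 or 91 lower. The list's median ratio was then -3.86 or -4.02 and its median difference from 30 °C -2.27 or -2.55. Features with a difference of at least 1 numbered 522, and 2480 or 1587 on these totals; those at -1 or lower numbered 468, and 131 or 180. A filter at a mean of 1 or none raised the lower features to 220 or 293 by admitting features with few reads. The share of lower genes with a 3-unit element, 20.8%, was 35.7% at 4-fold and 12% in 250 bases, a window added after the data were seen. edgeR's quasi-likelihood test of rapamycin in an additive model, with 1 residual degree of freedom and Benjamini-Hochberg adjustment, called 6 features higher and 20 lower, 7 of them among the 23 Hsf1-target genes, and 369 at an unadjusted p under 0.05; it counts any interaction with heat as noise. No paired analysis was possible because each group held 1 library, with no replicates to pair; the additive model takes the drug within each temperature. With 1 library a group, none could be left out. Depth limits the features with under 10 reads.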

Other observations

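All 76 small nucleolar RNAs had ratios below 0 in heat shock with over without rapamycin, between -1.03 and -0.41, with 1 past 2-fold (median -0.73, and -0.24 on library totals), and they took 13.6% and 11.6% of the reads of the heat-shocked pair. Transfer RNA features took 13.8% and 10.1%, and of the 29 of 299 that were kept 8 were at least 2-fold lower and 1 higher (median -0.87, and -0.38 on library totals). tS(AGA)D3 was the lowest of them, at 62.9, 42.6, 216 and 25 normalised reads at 30 °C without and with rapamycin and in heat without and with it. Such short, multi-copy RNAs depend on how the library and the counting treated them.

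Glycolysis genes had a median of -0.42 (0.07 on library totals), with 1 of 17 at least 2-fold lower, the phosphoglycerate kinase gene PGK1, at 9896, 9153, 22396 and 9106 (2.46-fold lower, 2.40 to 2.52), which has a 3-unit Hsf1 element upstream. AHP1, a peroxiredoxin gene, was the 1 of 32 redox genes past 2-fold, at 759, 550, 4083 and 1672 (2.44-fold lower, 2.30 to 2.60). Beside the counts of both lists, the share of all features at least 2-fold lower is 2.46%. ACT1, the actin gene, was at 3820, 3607, 3736 and 2866. Amino acid biosynthesis genes had 2 of 50 at least 2-fold higher, no more than the 4.56% of all features (median 0.19), among them LEU9 of leucine synthesis (2.25-fold, 1.68 to 3.11). Respiratory chain genes (35), sterol synthesis genes (22), core histones (8), mitosis and early G1 genes (20) and retrograde and citric acid cycle genes (22) had no member past 2-fold in either direction, with medians of -0.05, 0.28, 0.17, 0.13 and 0.09; the respiratory median was 0.44 on library totals.

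Beside the counts of the other lists, the shares of all features are 2.46% at least 2-fold lower and 4.56% at least 2-fold higher. Counts of 1 or 2 members are too few to set a list apart from these shares. G1 cyclin and S phase genes (22) had 1 member at least 2-fold higher, CLN3, and 1 lower, PCL1, the latter from 6 reads and 1. Sulfate and methionine genes had 2 of 26 higher, among them MET2 of homoserine acetylation (2.86-fold, 1.61 to 5.87), and phosphate genes 1 of 14 higher. Autophagy genes had 2 of 28 lower, ATG41 and ATG34, and Ras, protein kinase A and TOR pathway genes 2 of 24 lower, LST8 and IRA2. Among 18 stress transcription factor genes YAP6 stood higher, by 1.70 on the log2 scale, and RPN4 lower, while MSN2 was at 199 and 210 in the heat-shocked pair and MSN4 at 180 and 271. Cell wall (33) and iron regulon genes (22) each had 1 member past 2-fold either way, meiosis genes 1 of 14 higher, and hexose transporters (14) none.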
